A study of Homo sapiens with 3 samples.

Results

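Exon peaks are the stretches of the genome, listed by the authors as enriched over input, whose deposited class was exon. They were taken from the peak lists of both antibodies of a chromatin immunoprecipitation sequencing (ChIP-seq) study, with 1 entry per peak position and the annotation of the transcript whose start lay nearest. There were 507 among 11565 Flag-USP39 peaks (4.38%, 95% Wilson interval 4.03 to 4.77) and 648 among 14027 POLR2A peaks (4.62%, 4.28 to 4.98), together 1155 of 25592. The study used A2780, labelled as a line of serous ovarian cancer. Its 3 libraries were an anti-Flag precipitate of cells carrying Flag-USP39, an anti-POLR2A precipitate that served as the positive control, and an input of 10% of the genomic DNA. How Flag-USP39 was brought into the cells, and whether these formed 1 clone or a pool, were not given in the sources used here. Each group held 1 library and both lists were made against the same input. No value therefore has a replicate error and no test between the antibodies was made. Intervals are 95% intervals, cover counting error only, and treat peaks as separate although peaks of 1 gene share their source.

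USP39 resembles ubiquitin-specific proteases in sequence and works as a splicing factor within the tri-snRNP, which joins the spliceosome before its catalytic steps. POLR2A is the largest subunit of RNA polymerase II, which transcribes protein-coding genes and continues past their polyadenylation sites before it is released. Splicing takes place largely while the RNA is still being made, so spliceosome components can be recovered with chromatin through the nascent RNA. Internal human exons are usually short, and the last exon, which carries the 3' end of the message, is usually the longest.

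The exon class began where the promoter class ended, at 2000 bp from a transcription start. The exon peaks closest to a start were those of TCF20 (2032 bp, 5 tags) and MRFAP1 (2045 bp, 6 tags) for Flag-USP39, and of OAS1 (2031 bp, 4 tags) and NEUROD6 (2035 bp, 4 tags) for POLR2A. Just inside the promoter class lay Flag-USP39 peaks of SLC1A3 and ADAMTSL4-AS1, both at 1991 bp with 3 and 5 tags, and POLR2A peaks of MIR4312 (1999 bp, 4 tags) and MIR663B (1988 bp, 101 tags). Exon sequence within 2000 bp of a start is therefore outside the class. The Flag-USP39 exon peaks fell on 446 genes and the POLR2A exon peaks on 561. The 126 genes with an exon peak in both lists were 28.3% of the Flag-USP39 genes and 22.5% of the POLR2A genes. Coding transcripts (NM accessions) carried 471 Flag-USP39 and 612 POLR2A exon peaks, and noncoding ones 36 in each list. USP39 itself held no exon peak in either list. The POLR2A gene held 1 Flag-USP39 exon peak, of 4 tags, and no POLR2A exon peak.

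Most exon peaks held few tags, the sequenced fragments that the authors counted in a peak. The median was 4 in both lists, and 359 Flag-USP39 (70.8%) and 472 POLR2A exon peaks (72.8%) held 3 to 5. A count of 3 tags has an exact Poisson interval of 0.619 to 8.77, and one of 4 an interval of 1.09 to 10.2. The lists had different p-value limits, 1e-05 for Flag-USP39 and 1e-04 for POLR2A. The authors listed no Flag-USP39 peak under 3 tags and no POLR2A peak under 4, so at this depth a peak that is missing was not detectable and need not be absent. Exon peaks held 4800 of 62327 Flag-USP39 tags in peaks (7.70%) and 5732 of 86228 POLR2A tags (6.65%), and 1 gene, MALAT1, accounted for 34.6% and 30.0% of these exon tags. Without MALAT1 the sums were 3139 and 4010 tags.

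Peaks with many tags were a larger share of the Flag-USP39 exon class than of the whole Flag-USP39 list. At least 10 tags lay in 48 of 507 Flag-USP39 exon peaks (9.47%, 7.22 to 12.3), against 2.92% of all Flag-USP39 peaks and 1.67% of intron peaks. For POLR2A they were found in 44 of 648 exon peaks (6.79%, 5.10 to 8.99), against 4.23% of all peaks and 2.19% of intron peaks. Without 211 genes of the epidermis and hair follicle, grouped after the data were seen and described further on, the shares of exon peaks were 6.58% for Flag-USP39 and 4.69% for POLR2A, the second of which is near the 4.23% of all POLR2A peaks. Promoter peaks reached 10 tags in 9.72% of cases for Flag-USP39 and 9.21% for POLR2A. Each list had 41 genes with such an exon peak, and 23 of these genes were in both. Fold enrichment, the authors' ratio of a peak over its background, did not reach the values of other classes. Among peaks of 20 or more tags, the exon peaks had a median fold of 39.6 and a highest fold of 88.6 for Flag-USP39, against 60.9 and 1786 for other classes. The same medians and highest folds for POLR2A were 35.6 and 53.0 in exon peaks, against 70.1 and 1465 in other classes. The tags were spread over longer stretches: these exon peaks had median lengths of 1618 bp (Flag-USP39) and 1766 bp (POLR2A), against 750 and 1044 bp elsewhere. Their median densities were 20.3 Flag-USP39 and 19.3 POLR2A tags per kb of peak, against 64.6 and 37.0 in other classes.

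Positions along the transcript were skewed to its 3' end. On a scale where 0% is the annotated start and 100% the annotated end, the median exon peak centre lay at 88.5% for Flag-USP39 and at 90.02% for POLR2A, against 39.8% and 43.0% for intron peaks. The last 10% of the transcript held 240 Flag-USP39 exon peaks (47.3%, 43.0 to 51.7), against 5.80% of intron peaks, and 324 POLR2A exon peaks (50%, 46.2 to 53.8), against 6.25%. The first 50% of the transcript held 87 Flag-USP39 (17.2%) and 89 POLR2A exon peaks (13.7%), against 61.6% and 57.8% of intron peaks. How exon sequence itself is spread along these transcripts was not analysed here, so these shares have no expectation beside them.

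**Figure D1:**
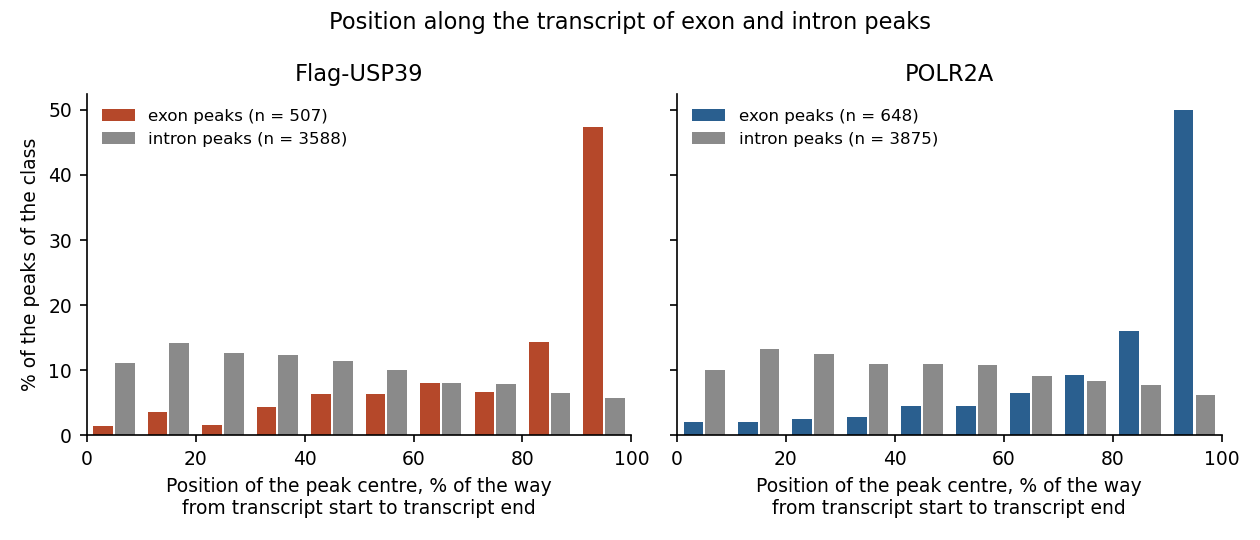
Position of peak centres along their transcript, from annotated start (0%) to annotated end (100%), in steps of 10%, for Flag-USP39 (left) and POLR2A (right). Coloured bars are exon peaks and grey bars intron peaks, each as a percent of its class. The last step holds 47.3% of Flag-USP39 and 50% of POLR2A exon peaks.

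In base pairs, the median distance from the centre of an exon peak to the transcript end was 2345 bp for Flag-USP39 and 2038 bp for POLR2A, against 66472 and 57433 bp for intron peaks. The files give no exon coordinates, so a centre within 2000 bp of the transcript end stands in here for a last-exon position. It was met by 228 of 507 Flag-USP39 exon peaks (45.0%, 40.7 to 49.3), against 7.90% of all Flag-USP39 peaks centred inside a transcript and 1.14% of intron peaks. For POLR2A it was met by 319 of 648 (49.2%, 45.4 to 53.1), against 9.94% of all peaks centred inside a transcript and 1.91% of intron peaks. On a transcript of at most 4000 bp the class border at 2000 bp from the start leaves a centre no place but within 2000 bp of the end. Without the exon peaks on such transcripts, 206 of 485 Flag-USP39 exon peaks (42.5%, 38.2 to 46.9) and 295 of 624 POLR2A exon peaks (47.3%, 43.4 to 51.2) lay that near. Nearer still, within 500 bp of the end, lay 77 Flag-USP39 and 102 POLR2A exon peaks. At the other extreme, 44 Flag-USP39 and 51 POLR2A exon peaks lay over 50000 bp from the end. No exon peak had its centre past the annotated end, but the 3' edge of 31 Flag-USP39 and 48 POLR2A peaks crossed it.

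Transcripts under exon peaks were shorter than those under intron peaks. The median transcript under an exon peak measured 32075 bp for Flag-USP39 and 32139 bp for POLR2A from start to end, against 137317 and 120741 bp under intron peaks. With no exon coordinates, a length of at most 10000 bp was taken as a loose stand-in for genes of few exons. Length does not separate these from short genes with many exons, so the shares below describe short transcripts only. Such a length was found under 104 Flag-USP39 exon peaks (20.5%, 17.2 to 24.2), against 7.45% of all Flag-USP39 peaks centred inside a transcript and 1.53% of intron peaks. Under POLR2A exon peaks it was found 138 times (21.3%, 18.3 to 24.6), against 13.1% of all peaks centred inside a transcript and 2.55% of intron peaks. A share of 50.7% of Flag-USP39 and 39.3% of POLR2A promoter peaks centred inside a transcript lay on such short ones. How exon and intron sequence is spread over transcripts of different length was not analysed here. These lengths and shares, and the distances to the end above, therefore have no expectation beside them.

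Near-end positions and short transcripts were each found in a larger share of the exon peaks of 20 or more tags than of those of 3 to 5 tags. Positions within 2000 bp of the end were found for 40.9% (36.0 to 46.1) of Flag-USP39 exon peaks of 3 to 5 tags, 51% of those of 6 to 9, 58.1% of those of 10 to 19 and 70.6% (46.9 to 86.7) of those of 20 or more. For POLR2A the shares in the same order were 46.2% (41.7 to 50.7), 53.8%, 56% and 84.2% (62.4 to 94.5), and for both antibodies the intervals of neighbouring ranges overlapped. On transcripts over 4000 bp the shares at 20 or more tags were 7 of 12 for Flag-USP39 (58.3%, 32.0 to 80.7) and 13 of 16 for POLR2A (81.2%, 57.0 to 93.4), against 39.4% (34.5 to 44.6) and 44.9% (40.4 to 49.5) at 3 to 5 tags. The Flag-USP39 intervals overlap there. Transcripts of at most 10000 bp carried 16.2% (12.7 to 20.3) of Flag-USP39 exon peaks of 3 to 5 tags and 12 of the 17 of 20 or more (70.6%, 46.9 to 86.7). For POLR2A they carried 18.4% (15.2 to 22.2) of exon peaks of 3 to 5 tags and 12 of the 19 of 20 or more (63.2%, 41.0 to 80.9). Peaks of 10 or more tags covered a median of 9.42% of their transcript for Flag-USP39 and 9.14% for POLR2A, and 12 in each list covered at least 20%.

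**Figure D2:**
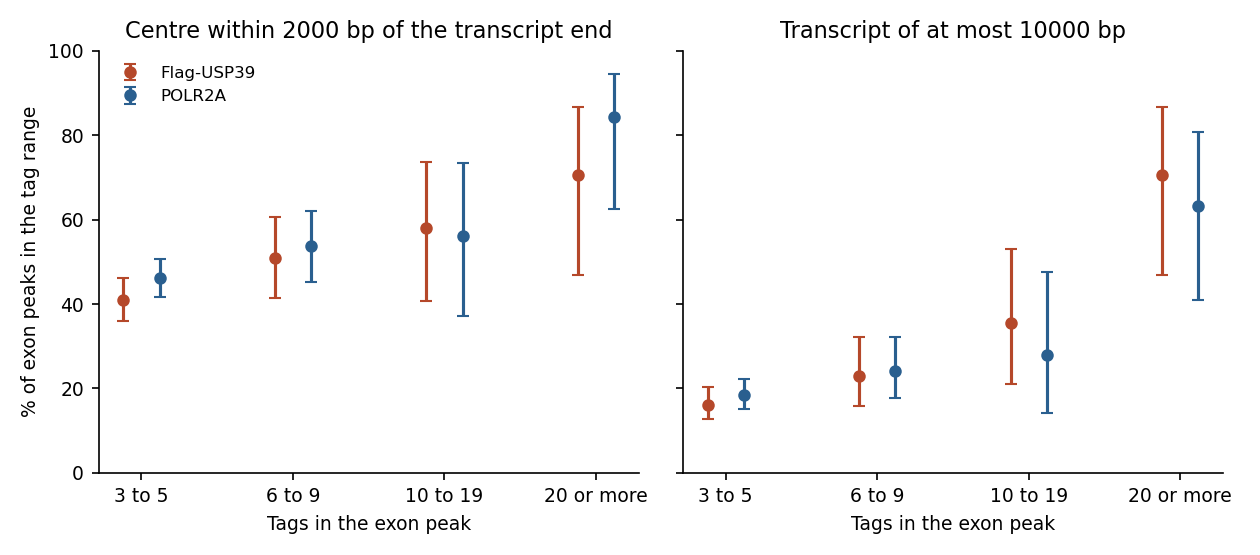
Share of exon peaks with the centre within 2000 bp of the transcript end (left) and share on transcripts of at most 10000 bp (right), in percent, by tags in the peak. Points are Flag-USP39 (red) and POLR2A (blue), bars are 95% Wilson intervals. Shares are highest at 20 or more tags, where 70.6% of Flag-USP39 and 84.2% of POLR2A exon peaks lay near the end.

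The peak with the most tags in either exon class covered MALAT1, a long noncoding RNA kept in the nucleus at splicing speckles and made from a transcript of 8751 bp. It held 1661 Flag-USP39 tags over chr11:65266505-65273959 (hg19) and 1722 POLR2A tags over chr11:65265898-65273941. The peaks spanned 85.2% (Flag-USP39) and 91.9% (POLR2A) of the transcript and stopped 24 and 42 bp short of its end. That made 223 Flag-USP39 and 214 POLR2A tags per kb of peak, with fold enrichments of 37.1 and 23.7. Of the tags of both peaks, 49.1% were Flag-USP39 (Clopper-Pearson interval 47.4 to 50.8). Among the other nuclear and growth-arrest noncoding RNAs of a 15-gene list, exon peaks were small. NORAD, a cytoplasmic RNA that binds Pumilio proteins, had 8 Flag-USP39 tags and, at a separate place, 7 POLR2A tags. TUG1 had POLR2A exon peaks of 6 and 4 tags, and a Flag-USP39 peak of 13 tags, assigned upstream of MORC2, covered the first. Small exon peaks were also found at KCNQ1OT1, with 3 Flag-USP39 tags.

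GJA1, which encodes the most widely expressed gap junction protein, came next, with 124 Flag-USP39 tags at chr6:121767940-121770882 and 128 POLR2A tags at chr6:121767975-121770881. The Flag-USP39 peak ended 8 bp and the POLR2A peak 9 bp before the transcript end. The coding sequence of connexin genes lies in 1 exon near that end. GJB2, a connexin of skin and inner ear, had 39 Flag-USP39 tags at chr13:20761875-20763787 and 38 POLR2A tags. Its neighbour GJB6 had 20 tags with each antibody. These 3 were the only genes with an exon peak among 21 connexin genes (14.3% with each antibody, beside 2.09% of protein-coding genes for Flag-USP39 and 2.70% for POLR2A), a list chosen after the data were seen.

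TCHH, which encodes trichohyalin of the hair follicle's inner root sheath, held 4 Flag-USP39 and 4 POLR2A exon peaks on a transcript of 9138 bp. The 4 Flag-USP39 peaks, from the transcript end inwards, held 78, 29, 10 and 11 tags, and the 4 POLR2A peaks 31, 74, 9 and 19. The sums were 128 Flag-USP39 and 133 POLR2A tags. Near the end the borders fell in different places: the Flag-USP39 peak there ran over chr1:152078796-152081241, whereas the POLR2A list split the same stretch at chr1:152079727. Further inwards, the Flag-USP39 peaks of 10 and 11 tags and the POLR2A peaks of 9 and 19 shared 99.3% and 100% of the shorter peak. PERP, a membrane protein of desmosomes, had 49 Flag-USP39 tags at chr6:138411933-138413531 and 62 POLR2A tags. KRT85, a keratin of hair and nail, had 49 Flag-USP39 tags at chr12:52753551-52754918 and 47 POLR2A tags, and both peaks crossed the annotated end, by 238 bp for Flag-USP39 and 65 bp for POLR2A. DSC3, a desmosomal cadherin, had Flag-USP39 peaks of 26 and 13 tags, 39 in all, and POLR2A peaks of 14, 10 and 5 tags, 29 in all.

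**Figure D3:**
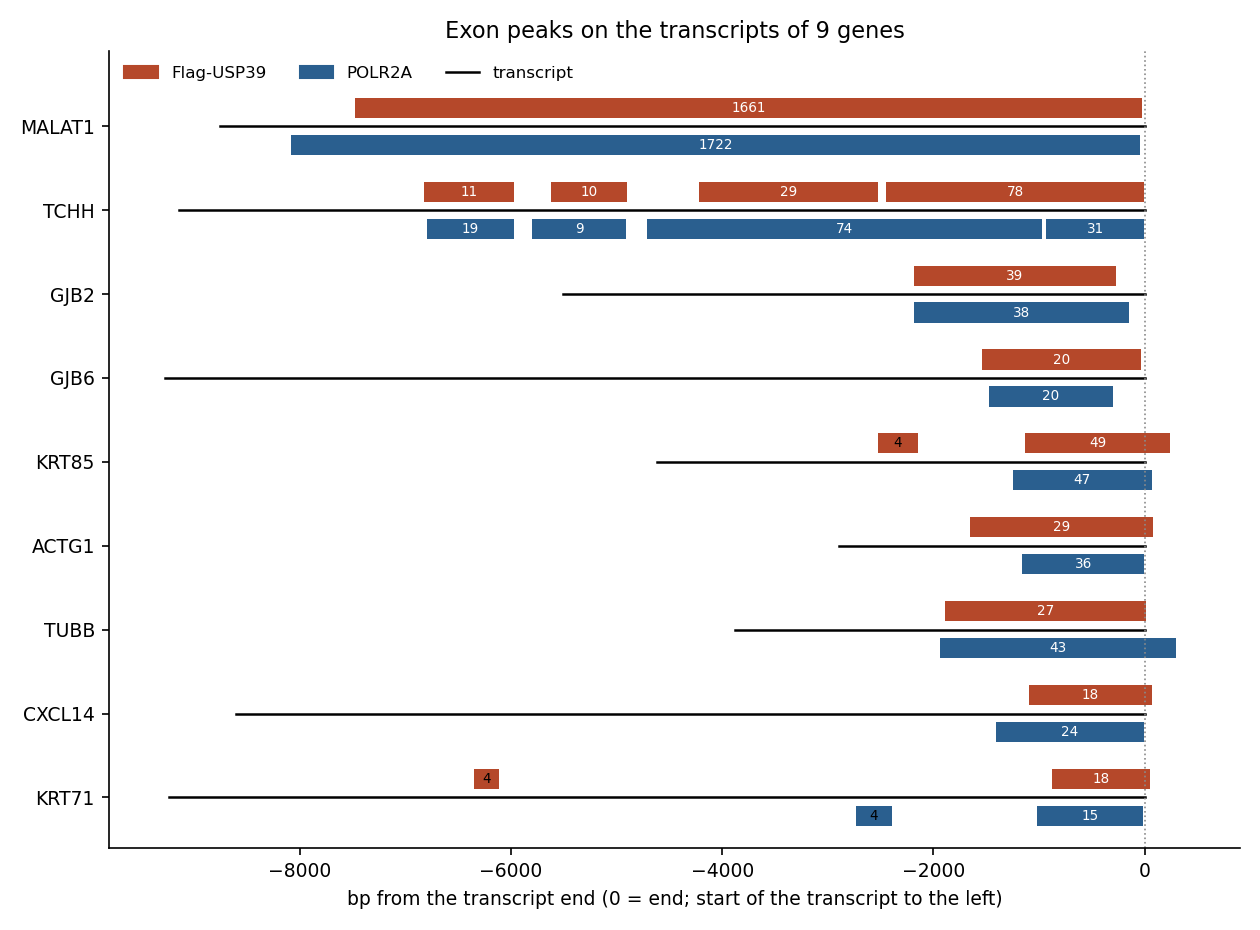
Exon peaks drawn to scale on the transcripts of 9 genes, lined up at the annotated end (0 bp), with Flag-USP39 peaks above the line and POLR2A peaks below it. Numbers are tags in the peak. MALAT1 is covered almost whole (1661 and 1722 tags). TCHH is split into 4 peaks by each antibody, with borders that differ between the antibodies near the end. The other genes drawn (GJB2, GJB6, KRT85, ACTG1, TUBB, CXCL14 and KRT71) have their main peaks at the end.

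Genes of the actin and tubulin cytoskeleton had exon peaks with both antibodies. Of 29 members, 7 had a Flag-USP39 exon peak, against 2.09% of protein-coding genes, and 11 a POLR2A exon peak, against 2.70%. For 6 of the 8 Flag-USP39 peaks of the group and 7 of its 13 POLR2A peaks the transcript measured at most 4000 bp, so their place within 2000 bp of the end was set by the class border. Of the peaks on longer transcripts, both Flag-USP39 peaks and 4 of the 6 POLR2A peaks lay within that distance. All 8 Flag-USP39 peaks also met a POLR2A peak, and 6 of the 13 POLR2A peaks met a Flag-USP39 peak. ACTG1, a cytoplasmic actin, had 29 Flag-USP39 tags at chr17:79476916-79478648 and 36 POLR2A tags. TUBB, a beta-tubulin, had 27 Flag-USP39 tags at chr6:30691312-30693211 and 43 POLR2A tags. TUBA1B, an alpha-tubulin, had 20 Flag-USP39 tags. Actin and tubulin genes have near-identical copies and processed pseudogenes that can share reads, so the tags of single members are uncertain.

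Some coinciding peaks were given different classes in the lists. ACTB, the other cytoplasmic actin, had Flag-USP39 exon peaks of 30 and 17 tags, and the first had the highest fold of any exon peak, 88.6. There a single POLR2A peak of 70 tags spanned both and was classed as intron. The same kind of split was seen at KRT14, a keratin of basal epidermis, with 25 Flag-USP39 tags in an exon peak and 25 POLR2A tags in an intron-class peak, and at KRT5, its partner, with 45 Flag-USP39 tags in an intron-class peak and 42 POLR2A tags in an exon peak. PKP1, a desmosomal plaque protein, had 28 POLR2A tags where a Flag-USP39 peak of 40 tags was assigned between genes. In all, 43 overlapping pairs had 1 exon peak and 1 peak of another class, so a gene without an exon peak in 1 list could still have a peak over its exons there.

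Chaperone genes had exon peaks in 3 of 28 cases for Flag-USP39 (10.7%, beside 2.09% of protein-coding genes) and 5 for POLR2A (17.9%, beside 2.70%). HSPA5, the chaperone of the endoplasmic reticulum, had 18 Flag-USP39 and 22 POLR2A tags at overlapping places, and a Flag-USP39 peak of 6 tags elsewhere. HSP90AA1, a cytosolic chaperone, had Flag-USP39 peaks of 6, 5 and 3 tags and POLR2A peaks of 11 and 4. Splicing regulators of the SR and hnRNP families had them in 4 of 36 cases for Flag-USP39 (11.1%) and 6 for POLR2A (16.7%), beside the same 2.09% and 2.70%. HNRNPF was the highest, with 11 Flag-USP39 tags against 4 POLR2A tags at the same place. HNRNPH1 had 8 Flag-USP39 tags and no overlapping POLR2A peak. HNRNPA2B1 had 5 Flag-USP39 tags, overlapping a POLR2A peak of 11 tags that was assigned upstream of CBX3. The tri-snRNP and spliceosome core, to which USP39 belongs, had 1 of 47 members with a Flag-USP39 exon peak (LSM3, 3 tags) and 2 with a POLR2A one (SF3B1, 5 tags, and PRPF19, 4 tags). That is 2.13% for Flag-USP39 and 4.26% for POLR2A, beside the 2.09% and 2.70% of protein-coding genes.

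Among growth-related genes, CCND1, encoding cyclin D1, had the exon peak with the most tags. It belongs to the ovarian cancer list, in which 4 of 29 members had a Flag-USP39 exon peak (13.8%, beside 2.09% of protein-coding genes) and 2 a POLR2A one (6.90%, beside 2.70%). CCND1 held 22 Flag-USP39 tags at chr11:69466221-69467838, and the POLR2A list split the place into peaks of 17 and 7 tags. CTNNB1, encoding beta-catenin, had a Flag-USP39 exon peak of 3 tags that overlapped an intron-class POLR2A peak of 4 tags. Its POLR2A exon peak, of 4 tags, overlapped an intron-class Flag-USP39 peak of 4 tags. Immediate early genes had exon peaks in 3 of 26 cases for Flag-USP39 (11.5%) and 4 for POLR2A (15.4%), all within 2000 bp of the end and none above 9 tags. For 1 of the 3 Flag-USP39 peaks the transcript measured at most 4000 bp, which sets that position. Extracellular matrix genes had them in 2 of 25 cases for Flag-USP39 (8%) and 3 for POLR2A (12%), led by THBS1, encoding thrombospondin, with 15 Flag-USP39 and 11 POLR2A tags. Of 30 G2 and mitosis genes, none had a Flag-USP39 exon peak and 1, MKI67 (3.33%), had POLR2A ones, 2 peaks of 4 tags. Glycolysis genes gave none of 18 for Flag-USP39 and 1 for POLR2A (5.56%), GAPDH, with 11 tags. An intron-class Flag-USP39 peak of 9 tags overlapped that GAPDH peak. At shares of 2.09% and 2.70% among all protein-coding genes, a count of 0 or 1 in lists of this size says nothing about the list.

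The exon peaks of ribosomal protein, histone and zinc finger genes held at most 7 tags. Of 85 cytosolic ribosomal protein genes, 4 had a Flag-USP39 exon peak (4.71%, beside 2.09% of protein-coding genes) and 5 a POLR2A one (5.88%, beside 2.70%), while 8 had a Flag-USP39 and 36 a POLR2A promoter peak. Of 65 histone genes, 1 had an exon peak with each antibody, while 11 had a Flag-USP39 and 48 a POLR2A promoter peak. Of the 52 histone genes with a peak of any class, 42 had a transcript of at most 2000 bp, on which the class border leaves no place for an exon peak. Zinc finger genes had exon peaks in 14 of 511 cases for Flag-USP39 (2.74%) and 11 for POLR2A (2.15%), shares near those of all protein-coding genes. Antisense RNA genes had them in 3 of 2116 cases with each antibody (0.142%, beside 2.09% and 2.70% of protein-coding genes). Only 428 of these antisense RNA genes had a peak of any class. The highest of their exon peaks were those of TAPT1-AS1, with 4 Flag-USP39 and 13 POLR2A tags. ChIP tags carry no strand of transcription, so they cannot be told apart from tags of a gene on the opposite strand.

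Genes of the epidermis and hair follicle stood out among the exon peaks with many tags. These genes were grouped after the data were seen, as 211 keratin, keratin-associated, desmosome, connexin and epidermal differentiation genes. They had 36 Flag-USP39 exon peaks on 24 genes and 30 POLR2A exon peaks on 20 genes, 7.10% and 4.63% of the exon peaks. Of the exon peaks of 10 or more tags they made up 17 of 48 for Flag-USP39 (35.4%) and 15 of 44 for POLR2A (34.1%), and of those of 20 or more tags 9 of 17 and 11 of 19. Their exon peaks had a median of 9 Flag-USP39 and 9.5 POLR2A tags, beside a median of 4 for the rest of the exon peaks in both lists. Keratin genes had exon peaks in 8 of 55 cases for Flag-USP39 and 5 for POLR2A, desmosome genes in 6 of 16 and 7, and epidermal differentiation genes in 7 of 25 and 5. These are 14.5%, 37.5% and 28% for Flag-USP39, beside 2.09% of protein-coding genes, and 9.09%, 43.8% and 20% for POLR2A, beside 2.70%. Of 94 keratin-associated protein genes, 14 had a Flag-USP39 and 9 a POLR2A promoter peak. All 27 with a peak of any class had transcripts of at most 2000 bp, which leave no place for an exon peak. KRT71, a keratin of the inner root sheath, had 18 Flag-USP39 and 15 POLR2A tags. CXCL14, a chemokine of epithelia, had 18 Flag-USP39 and 24 POLR2A tags.

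Of 9 epithelial and ovarian markers, PAX8, WT1, EPCAM, KRT8, KRT18, KRT7, CDH1, MUC16 and VIM, none had an exon peak with either antibody, and 1 had a promoter peak, in the POLR2A list. Of 19 markers of other cell types (blood, liver, muscle, neurons), none had a Flag-USP39 exon peak and 1, RBFOX3, had POLR2A ones, 2 peaks of 4 tags. Beside the 2.09% (Flag-USP39) and 2.70% (POLR2A) of all protein-coding genes, lists of 9 and 19 members are too small for these counts to check the label of the cells. Where the tags at epidermal genes came from was not tested.

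Most exon peaks met no peak of the other list, 378 of 507 for Flag-USP39 and 526 of 648 for POLR2A. Of the Flag-USP39 exon peaks, 129 of 507 (25.4%, 21.8 to 29.4) shared 1 bp or more with a POLR2A peak. The share was 6.04% of all Flag-USP39 peaks and 20.2% (17.3 to 23.4) of promoter peaks, whose interval overlaps that of exon peaks. In the other direction 122 of 648 POLR2A exon peaks (18.8%, 16.0 to 22.02) overlapped a Flag-USP39 peak. The share was 5.10% of all POLR2A peaks and 5.74% of promoter peaks. The POLR2A peaks met were of the exon class in 100 of the 129 cases, of the intron class in 13, upstream in 11, intergenic in 4 and promoter in 1. The Flag-USP39 peaks met were of the exon class in 104 of 122 cases. Without the epidermal genes the shares were 22.1% for Flag-USP39 and 16.3% for POLR2A. Both lists rest on the same input, and its part in the overlap was not tested.

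Within tag ranges the difference from other classes was clearest at few tags. Among Flag-USP39 peaks of 3 to 5 tags, 49 of 359 exon peaks met a POLR2A peak (13.6%, 10.5 to 17.6), against 1.61% (1.38 to 1.88) in other classes and 7.84% (5.81 to 10.5) of promoter peaks. At 6 to 9 tags the share was 35% (26.4 to 44.7) of exon peaks, against 20.03% (17.4 to 23.0) in other classes and 39.4% (30.1 to 49.5) of promoter peaks. At 10 to 19 tags it was 28 of 31 exon peaks (90.3%, 75.1 to 96.7), against 81.8% (75.3 to 86.8) in other classes and 82.1% (67.3 to 91.0) of promoter peaks, and the intervals overlapped. All 17 Flag-USP39 exon peaks of 20 or more tags met a POLR2A peak (interval 81.6 to 100), against 93.3% of other peaks and all 26 promoter peaks.

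Among POLR2A peaks the classes differed at high tags too. At 3 to 5 tags 10.6% (8.13 to 13.7) of POLR2A exon peaks met a Flag-USP39 peak, against 1.45% (1.25 to 1.69) in other classes. At 10 to 19 tags it was 18 of 25 exon peaks (72%, 52.4 to 85.7), against 41.2% (36.1 to 46.6) of other peaks and 22.9% (17.0 to 30.1) of promoter peaks. At 20 or more tags it was 18 of 19 exon peaks (94.7%, 75.4 to 99.1), against 66.5% (59.9 to 72.5) of other peaks and 50% (38.9 to 61.1) of promoter peaks. Intron peaks of POLR2A lay nearer to exon peaks in this range, with 72.7% (58.2 to 83.7) at 10 to 19 tags and 80.5% (66.0 to 89.8) at 20 or more.

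**Figure D4:**
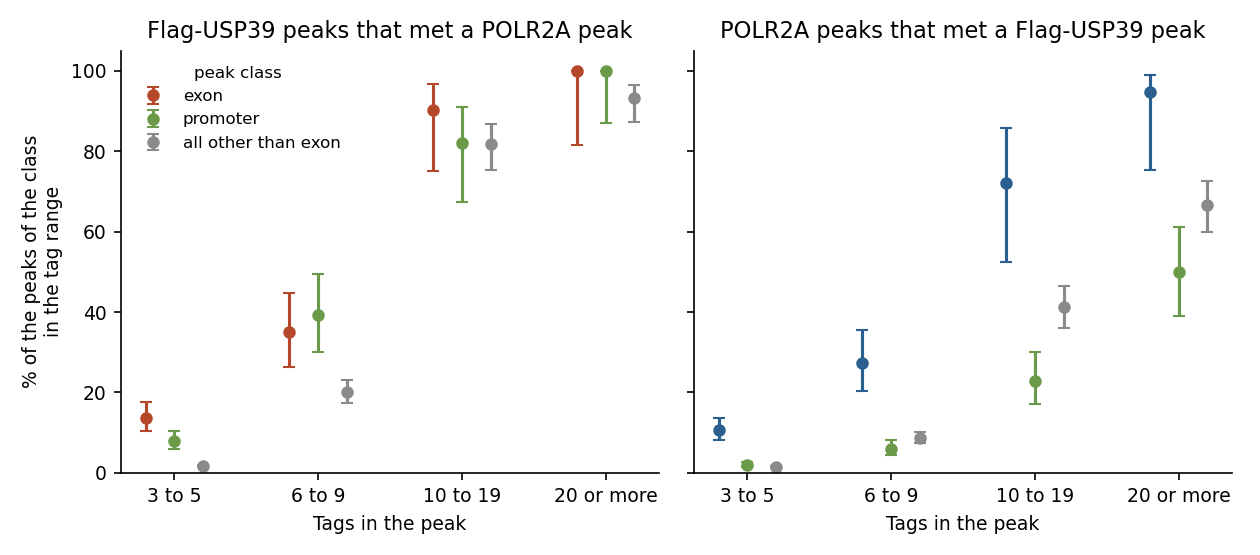
Share of peaks that overlapped a peak of the other list, in percent, by tags in the peak: Flag-USP39 peaks (left) and POLR2A peaks (right). Points are exon peaks (red or blue), promoter peaks (green) and all peaks other than exon (grey), bars are 95% Wilson intervals. At 20 or more tags 94.7% of POLR2A exon peaks and 50% of POLR2A promoter peaks met a Flag-USP39 peak.

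Raw tags of the antibodies were compared where exon peaks coincided. Matched 1 to 1, there were 99 overlapping pairs of exon peaks, and the shared stretch had a median of 98.1% of the shorter peak. The median ratio of Flag-USP39 to POLR2A tags was 1 (interquartile range 0.75 to 1.38), with 44 pairs higher for Flag-USP39, 43 higher for POLR2A and 12 equal. In 548 pairs in which neither peak was of the exon class the median ratio was 0.938. A pair needs a listed peak from each antibody, and the exon pairs had medians of only 7 Flag-USP39 and 6 POLR2A tags, which limits how far the ratios can spread. Tags were not scaled for library size, which the sources used here do not give, so the ratio compares pairs with each other and is no ratio of occupancy. Among the 35 exon pairs with 20 or more tags together the median ratio was 0.969 (range 0.321 to 2.57), against 0.917 (range 0.1 to 2.84) in 64 promoter pairs and 0.978 (range 0.233 to 4.44) in 48 intron pairs.

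**Figure D5:**
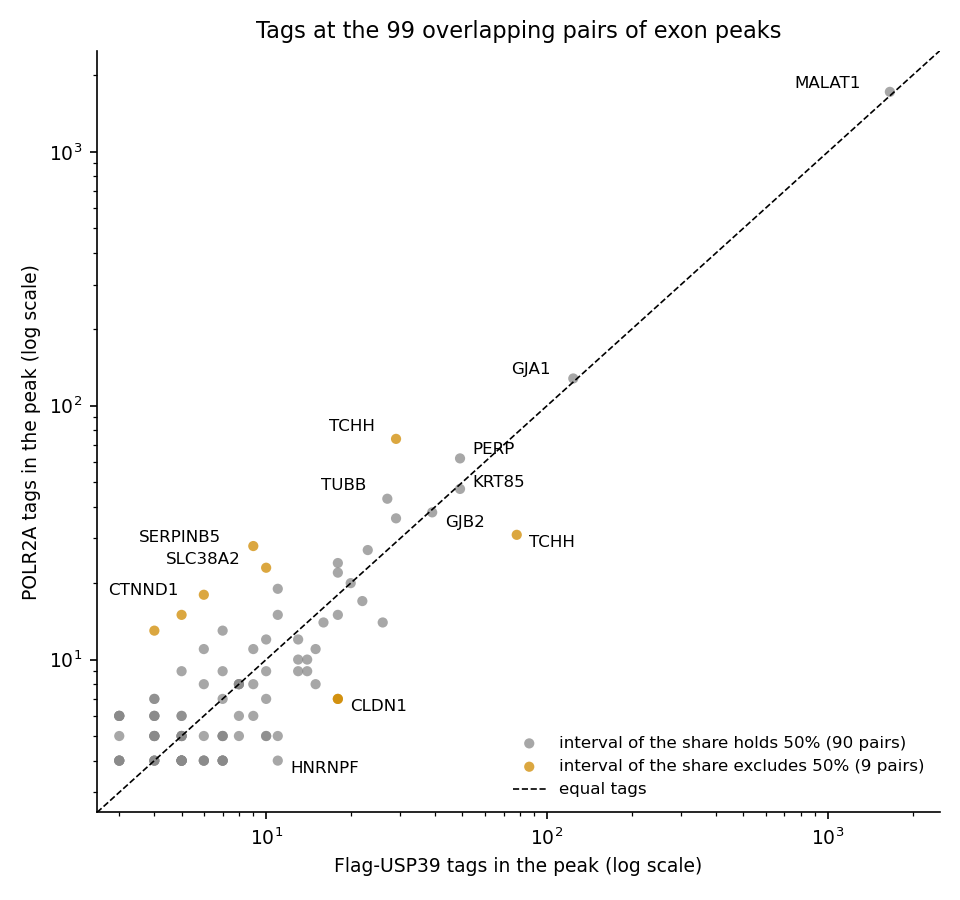
Tags in Flag-USP39 peaks (horizontal, log scale) and POLR2A peaks (vertical, log scale) at 99 overlapping pairs of exon peaks, 1 point per pair. The dashed line marks equal tags, and the 9 orange points are pairs whose Clopper-Pearson interval of the Flag-USP39 share excludes 50%. MALAT1 (1661 and 1722) and GJA1 (124 and 128) lie close to the line.

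In 9 of the 99 exon pairs, beside 45 of 548 pairs in which neither peak was of the exon class, the interval of the Flag-USP39 share of the tags excluded 50%. Toward Flag-USP39 the pair of CLDN1, a tight junction protein, held 18 Flag-USP39 and 7 POLR2A tags (72.0% Flag-USP39, 50.6 to 87.9). Toward POLR2A lay SERPINB5, an epithelial serpin, with 9 Flag-USP39 and 28 POLR2A tags (24.3%, 11.8 to 41.2), CTNND1, a catenin of adherens junctions, with 6 and 18 (25%, 9.77 to 46.7), and SLC38A2, an amino acid transporter, with 10 and 23 (30.3%, 15.6 to 48.7). Some of these ratios come with different borders: the POLR2A peak of SERPINB5 spanned 1943 bp and the Flag-USP39 peak 814 bp. The TCHH pairs stood on both sides, at 78 Flag-USP39 against 31 POLR2A tags and at 29 against 74, and summed over the gene the counts were 128 and 133. CD44, a hyaluronan receptor, likewise had a pair of 15 Flag-USP39 and 8 POLR2A tags beside one of 5 and 15, with 20 Flag-USP39 and 28 POLR2A exon tags in all.

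Exon peaks met by no peak of the other list were small for Flag-USP39. The highest were those of KLHL20, an adaptor of a ubiquitin ligase, CTTNBP2NL and MACF1, which links actin to microtubules, with 10 tags each, followed by DEGS1, a desaturase of ceramide synthesis, and SPECC1 with 9 each and TAOK1, a kinase, with 8. The KLHL20 and MACF1 peaks lay 52662 and 98943 bp from the transcript end, and those of CTTNBP2NL and DEGS1 4075 and 3669 bp. Several more Flag-USP39 exon peaks without a POLR2A peak also held 8 tags, among them those of HNRNPH1 and NORAD, at 384 and 1487 bp from the end. For POLR2A the highest was ARHGDIA, with 32 tags at chr17:79824855-79826808, centred 237 bp before the transcript end and reaching 739 bp past it. No Flag-USP39 peak of any class was assigned to ARHGDIA, which had 2 POLR2A promoter peaks. YPEL4 followed with 16 tags, CDV3 with 14, EGLN1, an oxygen-sensing hydroxylase, with 11, and CLIC4 and S100A16 with 10 each.

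Several exon peaks on 1 gene were found in 51 Flag-USP39 and 70 POLR2A genes. FAT1, an atypical cadherin, had 3 with each antibody, of 14, 10 and 5 Flag-USP39 tags and 9, 5 and 5 POLR2A tags. Its main peaks lay near the start side, at 12.3% of the transcript for Flag-USP39 and 12.1% for POLR2A, unlike most exon peaks. DDX17, an RNA helicase that takes part in splicing, had 2 Flag-USP39 peaks of 7 and 3 tags and 4 POLR2A peaks of 24, 8, 4 and 4. CTNND1 had 1 Flag-USP39 peak of 6 tags and 3 POLR2A peaks of 18, 4 and 4.

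Genes with an exon peak were also compared for promoter peaks. Of the 420 protein-coding genes with a Flag-USP39 exon peak, 31 had a Flag-USP39 promoter peak (7.38%, 5.25 to 10.3), against 2.19% of all protein-coding genes. A POLR2A promoter peak was found at 85 of them (20.2%, 16.7 to 24.3), against 9.45% of all. Of the 541 with a POLR2A exon peak, 30 had a Flag-USP39 promoter peak (5.55%, 3.91 to 7.81) and 118 a POLR2A one (21.8%, 18.5 to 25.5). Most genes with an exon peak thus had no promoter-class peak in either list at this depth, and MALAT1 and GJB2 had neither. At MALAT1 this does not mean a lack of tags near the start. Its exon-class peaks spanned 85.2% (Flag-USP39) and 91.9% (POLR2A) of the transcript and reached within 2000 bp of its start. Exon peaks were the only annotated peaks of 200 genes in the Flag-USP39 list and of 209 in the POLR2A list.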

How the data were processed

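The files used were an annotation table of peaks for each antibody, headed as that antibody against the input. The tools included Bowtie2 (2.2.4) and MACS (1.4.3), and the build was hg19, per the submitters' processing notes. How duplicates were treated, the library totals and the release of the annotation were not given in the sources used here. Tags per peak are deposited as raw counts. The score deposited by the authors multiplies the log10 of the peak's p-value by 10 and turns its sign, and its lowest values, 50 for Flag-USP39 and 40 for POLR2A, correspond to p-values of 1e-05 and 1e-04. Fold enrichment was deposited as a linear ratio over background and the deposited FDR is in percent, at most 0.01% for Flag-USP39 and 0.25% for POLR2A among exon peaks. The tables repeat a peak for each transcript, so 20273 Flag-USP39 and 27766 POLR2A lines were reduced to 11565 and 14027 peaks by keeping the transcript with the nearest start. The deposited class did not differ between the transcripts of any peak.

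Transcript length, distance to the end and relative position were computed from the deposited starts and ends. Peaks of the lists were taken to meet where they shared 1 bp or more, and pairs were formed 1 to 1 by the longest shared stretch. The overlap procedure was tested on simulated data. Shares carry Wilson intervals, tag shares Clopper-Pearson and tags exact Poisson intervals, with Python 3.11.15, pandas 2.3.3 and scipy 1.17.1. RefSeq, used for names and gene kinds, matched 444 of 446 Flag-USP39 and 557 of 561 POLR2A gene symbols. The members and lists were chosen with earlier results of these data known. Genes named were those of the 12 exon peaks with the most tags per list, of the 8 highest without a peak in the other list, of the 5 highest and 5 lowest ratios among pairs of 20 or more tags, of up to 6 with several exon peaks, and up to 4 members per gene list. Some genes that the rule takes are left out and not reported here. Others, those at the class border among them, were chosen after their values were seen.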

Additional observations from a re-analysis of the deposited data

How the results depend on the processing

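Of 76 alternatives to 11 results, 48 left the value within its interval and 28 moved it. For the tag ratio that interval was the interquartile range of the pairs (0.75 to 1.38), which a median can hardly leave. The alternatives that left every value unmoved were 1 exon peak per gene, the longest or shortest of tied transcripts and a longer required overlap. Taking the exon class from any transcript changes nothing by construction. The limit of 1e-05 likewise cannot move Flag-USP39 values that do not involve the POLR2A list, as the Flag-USP39 list already had that limit. The count of 48 includes these fixed outcomes, so it is no measure of robustness. The median tag ratio stayed between 0.965 and 1. With the p-value limited to 1e-10 in both lists, exon peaks were 52 of 381 Flag-USP39 (13.6%) and 39 of 520 POLR2A peaks (7.5%). Of these few exon peaks, 57.7% and 66.7% met the other list, and 65.4% and 76.9% lay near the transcript end. On short transcripts lay 50% and 51.3%, and 78.8% and 89.7% held 10 or more tags. At 1e-05 in both lists, 21.1% of Flag-USP39 and 27.8% of POLR2A exon peaks met the other list, and POLR2A exon peaks were 5.25% of their list, 12.1% of them with 10 or more tags. By construction a stricter limit leaves fewer peaks to meet. It also took out peaks of few tags: all 44 POLR2A exon peaks of 10 or more tags were kept at 1e-05, among 363 exon peaks in place of 648. The cause of the other moves was not tested. With 1000 bp as the distance to the end the shares were 27.6% for Flag-USP39 and 29.5% for POLR2A, and with 5000 bp 65.7% and 70.8%. With 5000 bp as the transcript length they were 8.48% and 7.25%, and with 20000 bp 35.3% and 34.3%. At least 6 tags were held by 29.2% and 27.2% of exon peaks and at least 20 by 3.35% and 2.93%. Without the epidermal genes, 6.58% and 4.69% held 10 or more. No paired analysis was possible because each group held 1 library. The main limits are the few tags per peak, the single library per antibody, the shared input, the unknown library totals and the lack of exon coordinates.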
